A study of Homo sapiens with 18 samples.

Results

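The core glycolytic enzymes described here are 10 genes, HK1, HK2, GPI, PFKP, ALDOA, PGK1, PGAM1, ENO1, PKM and LDHA, chosen as the rows that carry these symbols among 58735 genes of the RBCK1 table, 58735 of the ANKRD35 table and 29928 of the MITD1 table. All 10 were found once in each table, and all 10 passed the filter on low values in each (1 FPKM or more, the fragments counted per kilobase of gene and scaled to library depth, in 3 or more of the 6 libraries). Each table holds one RNA-seq experiment in 786-O cells, an established human clear cell renal carcinoma line, with 3 control and 3 knockdown libraries grown in serum-containing RPMI-1640 medium. The shcontrol libraries were set against shRBCK1, which targets the E3 ubiquitin ligase RBCK1, the libraries sicontrol_for_siANKRD35 against siANKRD35, and sicontrol_for_siMITD1 against siMITD1. The labels name no drug, time or clone, and they do not tie replicate numbers to separate cultures. The p-values therefore speak only to variation among these libraries, part of which may be technical. The column names of the ANKRD35 knockdown read ShRNA where the titles say si.

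Glycolysis converts glucose to pyruvate. Hexokinases (HK1, HK2) trap glucose as glucose 6-phosphate, GPI isomerises it, phosphofructokinase (PFKP is the platelet type) makes the committed step, and aldolase (ALDOA) splits the sugar. PGK1 makes ATP from 1,3-bisphosphoglycerate, PGAM1 and ENO1 prepare phosphoenolpyruvate, PKM makes the second ATP and pyruvate, and LDHA reduces pyruvate to lactate. Clear cell renal carcinoma usually lacks a working VHL protein, and 786-O cells lack it, so hypoxia-inducible factor (chiefly HIF-2, encoded by EPAS1, in this line) is not degraded. Many glycolytic genes carry sites for that factor and for MYC near their start.

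The stretches upstream of 4 members on the plus strand are shown. PGK1 had the largest change, and LDHA and PGAM1 were called in every comparison. HK2 rose more than HK1, the other member that rose, when PGK1 fell after MITD1 knockdown. ENO1, also called in every comparison, lies on the minus strand, and its stretch is not shown. The sequences are from RefSeq on GRCh38.p14, plus strand, 5′ to 3′, within 250 bases upstream of a RefSeq start and trimmed where GENCODE 29 annotates a UTR. Capitals mark ACGTG or GCGTG, the cores of the hypoxia-response element, on either strand (CACGT and CACGC are their reverse complements), and CACGTG, the E-box core, which is ACGTG on both strands.
PGK1 chrX:78103998-78104173: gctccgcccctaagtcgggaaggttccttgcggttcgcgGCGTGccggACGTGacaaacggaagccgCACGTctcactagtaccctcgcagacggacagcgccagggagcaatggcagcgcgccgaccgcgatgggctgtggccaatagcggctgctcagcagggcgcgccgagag
LDHA chr11:18394313-18394387: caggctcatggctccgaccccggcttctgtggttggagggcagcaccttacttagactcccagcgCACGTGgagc
HK2 chr2:74834920-74835169: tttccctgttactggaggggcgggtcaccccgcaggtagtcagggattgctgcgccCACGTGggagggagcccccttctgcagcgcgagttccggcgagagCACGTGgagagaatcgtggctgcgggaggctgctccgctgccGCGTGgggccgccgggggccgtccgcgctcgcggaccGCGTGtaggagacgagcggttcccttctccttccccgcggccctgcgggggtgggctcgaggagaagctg
PGAM1 chr10:97427568-97427817: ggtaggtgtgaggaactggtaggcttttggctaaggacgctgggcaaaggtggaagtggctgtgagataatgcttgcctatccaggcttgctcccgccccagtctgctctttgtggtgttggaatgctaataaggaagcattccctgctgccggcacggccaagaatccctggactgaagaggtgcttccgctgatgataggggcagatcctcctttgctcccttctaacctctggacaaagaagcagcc
Trimming left 176 bases for PGK1 and 75 for LDHA, against 250 for HK2 and PGAM1, so counts are not alike in length. The PGK1 stretch holds 2 matches to ACGTG and 1 to GCGTG, and the LDHA stretch holds 1 CACGTG. The full 250 bases of that LDHA window hold 2 CACGTG and 5 matches to ACGTG, where each CACGTG counts on both strands. The HK2 stretch, before the second of its 2 RefSeq starts, holds 2 CACGTG and 2 GCGTG, and the PGAM1 stretch holds no match to any of the 3. Over the full 250 bases, 13 of the 23 windows of the 10 members hold ACGTG or GCGTG, against 43.2% of all 35116 windows. Of the 10 members, 8 have such a window, against 47.4% of all 27305 genes. The members without one are PGAM1 and PKM. A CACGTG is found before a start of HK2, ALDOA and LDHA (3 of 10 members), against 7.73% of all genes with one before any start. By window, it is in 1 window each of HK2, ALDOA and LDHA, against 6.34% of all windows. The 10 members have 23 windows and the 27305 genes 35116. On average a member thus had more windows in which a match could fall, so the shares per gene are not alike. These matches are descriptions of the letters only.

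The targeted genes fell in their own tables, RBCK1 from 480.3 to 31.9 FPKM, ANKRD35 from 727 to 0.0111 and MITD1 from 7.47 to 2.71 (means of 3). The controls of the first 2 tables stood apart in the targeted gene: RBCK1 was listed at 70.8 and 65.5 FPKM in the other controls, and ANKRD35 at 0 and 0.00640, although the labels name no added construct. Recovered reads per library numbered 16346478 to 18648246 in the RBCK1 table and 17502646 to 19034974 in the ANKRD35 table, and were estimated at 14443656 to 15780394 in the MITD1 table. PAX8, KRT8 and KRT18 (renal epithelium) and VIM and CDH2 were expressed in every library, with the 6 renal markers summing to 239.7 to 1366 FPKM. KRT8 and KRT18 held most of that sum, as with 638 and 657 FPKM in knockdown replicate 1 of the ANKRD35 table. CDH16 and EPCAM were under 1 FPKM in the shcontrol libraries, whereas EPCAM was at 20.1 in the ANKRD35 controls. In the controls of the RBCK1, ANKRD35 and MITD1 tables, GATA3 was at 2.15, 0.0270 and 2.11 FPKM and NEFL at 32.4, 4.73 and 59.2. Both come from a marker list for an embryonic kidney line, whose remaining gene, NEFM, was under 1 FPKM in every library. All titles name 786-O cells, and the identity of the cells was not tested. Fibroblast, endothelial and blood marker lists summed to at most 4.76, 0.331 and 5.06 FPKM, with HBB at 0 in every library. Because the 3 tables were scaled separately, levels set side by side across them are descriptions.

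In all 6 groups the enzymes stood in nearly the same order, with ENO1 highest, then PKM, PGAM1 and LDHA, and with ALDOA lowest (the plot of levels by library shows this). Levels here are FPKM, per length, and depend on the listed length, the union of a gene's annotated exons, which is 10680 bases for GPI and 8571 for PKM. Control ENO1 ran from 892 to 937 FPKM in the RBCK1 table, 557 to 579 in the ANKRD35 table and 1501 to 1532 in the MITD1 table. ENO1 alone held 34.6% to 37.9% of the summed control FPKM of the 10, and PKM 23.9% to 24.9%. PFKP and PGK1 formed a middle tier, and HK1, HK2 and GPI a low one. Neighbouring ranks overlapped for PGAM1 and LDHA in shRBCK1, for PKM and PGAM1 and for PGK1 and PFKP in siANKRD35, and for PGK1 and PFKP in the MITD1 controls. The ranges of all other neighbours did not overlap, though some gaps were narrower than the ranges themselves, as for HK2 (21.2 to 22.2 FPKM) and GPI (19.6 to 21.1) in shcontrol.

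**Figure D1:**
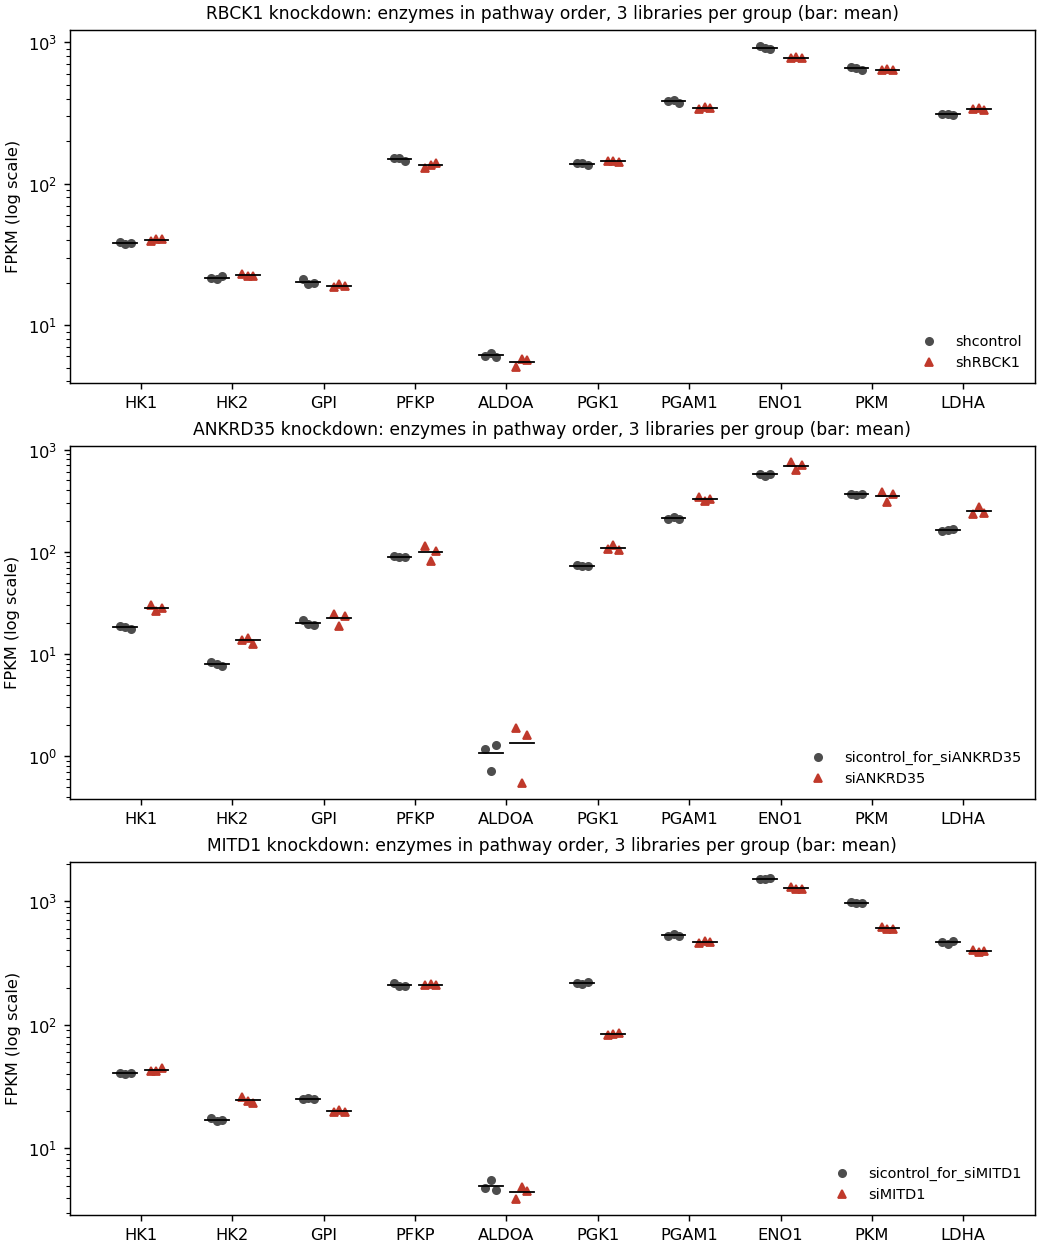
FPKM of the 10 enzymes in each library on a log axis, in pathway order, with 1 panel per table; grey circles are the 3 control libraries, red triangles the 3 knockdown libraries, and bars their means. ENO1 is the highest and ALDOA the lowest enzyme in all 6 groups, and PGK1 separates most widely in the MITD1 panel, at 213 to 221 against 83.1 to 85.6.

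ALDOA needs a limit of its own. It was listed at 4.96 to 6.13 FPKM in the RBCK1 and MITD1 controls and 1.07 in the ANKRD35 controls, on as few as 36 reads in a library, while the enzymes before and after it in the pathway stood far higher. GENCODE 29 lists a second gene on the same strand, AC093512.2, that shares 1657 of the 3916 exonic bases of ALDOA (42.3%), and AC093512.1 on the opposite strand shares 13.3%. AC093512.2 was itself at 0.908 FPKM in the RBCK1 controls and 1.01 in the ANKRD35 controls. How reads in shared bases were counted is not given in the sources used here, so the level of ALDOA is uncertain. For the other members the largest share of exonic bases held by another gene was 5.07% (GPI). Processed pseudogenes summed to less than 1% of the parent's FPKM for every member, with a highest share of 0.444% for LDHA.

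After MITD1 knockdown, GPI and enzymes of the lower, ATP-yielding part of glycolysis were lower. Both hexokinases were higher, HK1 by only 0.09 on the log2 scale. Of the 10 enzymes 6 fell (PGK1, PKM, GPI, ENO1, LDHA and PGAM1), 2 rose (HK2 and HK1), and PFKP and ALDOA did not pass the test. Over the 10415 genes tested, 35.6% fell and 30.0% rose, so changes in either direction were common in this comparison. Control and knockdown libraries did not overlap for 8 of the 10 enzymes, against 70.4% of all genes. The median log2 change was -0.20 for the 10 and -0.03 for all genes. The summed FPKM of the 10 was 3967 to 4023 in controls and 3111 to 3163 in knockdown libraries. That was 1.59% to 1.62% of all FPKM in controls and 1.26% to 1.29% after knockdown. In bulk RNA, less transcript per cell and fewer cells carrying it cannot be told apart.

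PGK1, the first ATP-making enzyme, had the largest change of any member in any comparison. Its control libraries held 217, 213 and 221 FPKM and its knockdown libraries 83.1, 83.9 and 85.6. The groups were far apart, with a level 2.58-fold lower and a log2 change, on the log2(FPKM + 1) scale used throughout, of -1.36 (SE 0.025, adjusted p = 8.27e-09). PKM, the second ATP-making enzyme, held 993, 959 and 975 FPKM in controls and 614, 594 and 599 after knockdown. All 3 knockdown libraries lay below all 3 controls, and the log2 change was -0.70 (SE 0.022, adjusted p = 9.07e-08). The PKM row sums all transcripts of the gene, so its 2 spliced forms, PKM1 and PKM2, are not separated here.

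The steps between PGK1 and PKM moved less. PGAM1, the mutase, held 519.8, 546 and 523 FPKM in controls and 462, 475 and 471 after knockdown, a log2 change of -0.17 (SE 0.025, adjusted p = 0.000342). ENO1, the enolase, held 1514, 1501 and 1532 FPKM in controls and 1297, 1263 and 1261 after knockdown, a change of -0.25 (SE 0.020, adjusted p = 9.91e-06). Neither gene's groups overlapped, but both changes were smaller than those of the ATP-making steps on either side. LDHA, at the exit to lactate, went from 468, 454 and 479 FPKM to 406, 389 and 397, a change of -0.23 (SE 0.027, adjusted p = 9.37e-05). These 3 genes therefore fell by similar amounts, with no overlap between groups.

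For the hexokinases, at the entry of the pathway, the direction was the opposite, but not for GPI, the next step. HK2, the inducible hexokinase, held 17.5, 16.5 and 17 FPKM in controls and 26.1, 24.3 and 23.4 after MITD1 knockdown. Every knockdown library was above every control, with a log2 change of 0.51 (SE 0.046, adjusted p = 2.24e-05). HK1, the constitutive hexokinase, went from 40.9, 39.9 and 40.6 to 42.6, 42.5 and 44.6 FPKM, a change of 0.09 (SE 0.031, adjusted p = 0.0255). The HK1 call was lost when control replicate 2, control replicate 3 or knockdown replicate 3 was left out, with adjusted p-values of 0.0718, 0.0569 and 0.0852. GPI, the isomerase that follows, went from 25.1, 25.5 and 25.0 to 19.7, 20.6 and 19.7 FPKM, a change of -0.32 (SE 0.033, adjusted p = 4.41e-05). PFKP, the committed step, stood at 217, 207 and 206 FPKM in controls and 209, 214 and 209 after knockdown, overlapping, with a change of 0.01 (SE 0.028, adjusted p = 0.835). For ALDOA the change was -0.13 (SE 0.084, adjusted p = 0.189). Apart from that of HK1, the 7 calls held in all 14 settings of the MITD1 comparison.

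TPI1 and GAPDH, the steps between aldolase and PGK1, complete the pathway. TPI1, which interconverts the triose phosphates, fell from 650.2 ± 5.52 to 581 ± 8.52 FPKM (SD, n = 3) after MITD1 knockdown, a log2 change of -0.16 (adjusted p = 0.000145). GAPDH fell from 1738 ± 29.7 to 1661 ± 16.7 FPKM (SD, n = 3), a change of -0.07 (adjusted p = 0.0182) that took the opposite sign under quantile normalization (0.03) and under a length and GC correction (0.05), and was made in 9 of 14 settings. It was also lost with no filter (adjusted p = 0.193), with median centring (0.0525) and without knockdown replicate 2 (0.0653).

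After ANKRD35 knockdown the direction was upward: 6 of the 10 enzymes rose (HK2, PGAM1, LDHA, HK1, PGK1 and ENO1), none fell (0 also at an unadjusted p under 0.05, in limma and with voom), and GPI, PFKP, ALDOA and PKM did not pass the test. Among the 11890 genes tested, 19.4% rose and 16.9% fell. Groups did not overlap for 6 of the 10, against 52.2% of all genes. The median log2 change was 0.42 for the 10 and 0.03 for all genes. The summed FPKM of the 10 was 1503 to 1536 in controls and 1790.2 to 2001 in knockdown libraries. All genes together also summed higher, to 300784 to 303874 FPKM in controls and 339712 to 348102 after knockdown. The 10 held 0.498% to 0.508% of all FPKM in controls and 0.527% to 0.575% after knockdown. By gene length, the median change over all genes was 0.263 below 2000 bases, 0.11 from 2000 to 6000 and -0.139 above 6000. HK1, HK2, GPI, PKM and LDHA are above 6000 bases, and the other 5 lie between the limits. The knockdown replicate 2 stood apart from replicates 1 and 3 in several members, as given below. With length and GC trends removed from the values before the fit, HK1, HK2, PGK1, PGAM1, LDHA and ENO1 stayed called. GPI joined them (0.42, adjusted p = 0.00485).

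Both hexokinases were well separated. HK2 held 8.39, 7.92 and 7.70 FPKM in controls and 13.8, 14.4 and 12.6 after ANKRD35 knockdown, a log2 change of 0.70 (SE 0.079, adjusted p = 0.00172). HK1 held 18.8, 18.4 and 17.7 FPKM in controls and 30.4, 26.1 and 28.0 after knockdown, a change of 0.60 (SE 0.079, adjusted p = 0.00247). In both genes the lowest knockdown library was above the highest control by more than the range of the controls.

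In the lower part of the pathway PGK1, PGAM1 and LDHA rose by amounts close to those of the hexokinases. PGK1 went from 74.2, 72.5 and 73.2 to 107, 117 and 104 FPKM, a log2 change of 0.57 (SE 0.070, adjusted p = 0.00207). PGAM1 went from 211, 218 and 209 to 341, 314 and 329 FPKM, a change of 0.62 (SE 0.066, adjusted p = 0.00141). LDHA went from 161, 163 and 167 to 236, 277 and 238 FPKM, a change of 0.61 (SE 0.082, adjusted p = 0.00265). Knockdown replicate 2 was the highest of the 3 for PGK1 and LDHA and the lowest for PGAM1, and no knockdown library of these genes overlapped the controls. The calls of HK1, HK2, PGK1, PGAM1 and LDHA held in all 15 settings, although under quantile normalization the changes of PGAM1, LDHA and PGK1 fell to between 0.27 and 0.30.

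ENO1 and PKM were less secure. ENO1 held 578, 557 and 579 FPKM in controls and 751, 635 and 699.9 after ANKRD35 knockdown, without overlap, a log2 change of 0.28 (SE 0.080, adjusted p = 0.0336) that became -0.04 under quantile normalization. Its call was made in 7 of 15 settings and was lost on leaving out any of the 3 control libraries or knockdown replicate 1 or 3, with adjusted p-values from 0.0568 to 0.130. PKM held 371, 357 and 366 FPKM in controls and 381, 305 and 365 after knockdown, so that knockdown replicate 2 lay below all controls while the other 2 lay among or above them. Its log2 change was -0.06 (SE 0.095, adjusted p = 0.638), with a range of -0.41 (adjusted p = 0.00817, quantile normalization) to 0.16 (adjusted p = 0.0791, length and GC correction).

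The remaining members of the ANKRD35 comparison overlapped between groups. PFKP held 91.8, 88.5 and 88.8 FPKM in controls and 114, 82.0 and 101 after knockdown, a log2 change of 0.13 (SE 0.12, adjusted p = 0.431). GPI held 21.3, 19.7 and 19.1 FPKM in controls and 24.6, 18.9 and 23.7 after knockdown, a change of 0.15 (SE 0.11, adjusted p = 0.331). In both, knockdown replicate 2 was below every control and the other knockdown libraries above every control. Without that library both passed the test, at 0.26 each (adjusted p = 0.0119 for PFKP and 0.0126 for GPI), and 8 enzymes were called higher in place of 6. ALDOA changed by 0.14 (SE 0.24, adjusted p = 0.679). TPI1 rose from 364 ± 15.5 to 508 ± 80.7 FPKM (SD, n = 3), a change of 0.47 (adjusted p = 0.0221), and GAPDH from 1606 ± 19.7 to 1890.1 ± 60.6, a change of 0.23 (adjusted p = 0.0265) that became -0.03 under quantile normalization. The TPI1 call was made in 9 of 15 settings and the GAPDH call in 6, and both were lost on leaving out any 1 control library or knockdown replicate 3. TPI1 and GAPDH were also the genes whose processed pseudogenes exceeded 1% of the parent's FPKM, at up to 5.44% and 2.55%.

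After RBCK1 knockdown the enzymes changed little. ENO1, PGAM1 and PFKP fell, LDHA rose, and the other 6 did not pass the test. Of the 12227 genes tested, 24.9% fell and 24.1% rose. Groups did not overlap for 8 of the 10 enzymes, against 59.0% of all genes. The median log2 change was -0.06 for the 10 (0.09 under quantile normalization and 0.0032 with voom) and 0.01 for all genes, and the summed FPKM was 2576 to 2679 in controls and 2449 to 2494 after knockdown. All 10 changes reported here were between -0.22 and 0.12 on the log2 scale, and the number called higher ran from 0 to 5 over the alternatives.

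ENO1 held 937, 906 and 892 FPKM in shcontrol and 774, 791 and 775 in shRBCK1, a log2 change of -0.22 (SE 0.034, adjusted p = 0.00134). LDHA held 312, 309 and 307 FPKM in controls and 339, 341 and 332 after knockdown, a change of 0.12 (SE 0.029, adjusted p = 0.00927). The groups of both genes were clear of each other, and both calls held in 14 of 15 settings, with adjusted p-values of 0.0566 and 0.0620 when low genes were not filtered out. PGAM1 held 385, 389 and 374 FPKM in controls and 338, 346 and 344 after knockdown, a change of -0.16 (SE 0.031, adjusted p = 0.00427) that turned to 0.10 (adjusted p = 0.00830) under quantile normalization. PFKP held 152, 151 and 144 FPKM in controls and 130.1, 136 and 141 after knockdown, a change of -0.13 (SE 0.041, adjusted p = 0.0327). The PFKP call was made in only 5 of 15 settings, and leaving out control replicate 1 or 2 or knockdown replicate 1 or 2 raised its adjusted p to between 0.0652 and 0.102.

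HK1, HK2, PGK1 and ALDOA had no overlap between shcontrol and shRBCK1 without passing the test. HK1 went from 38.6, 37.7 and 37.9 to 39.1, 40.9 and 40.7 FPKM, a log2 change of 0.08 (SE 0.032, adjusted p = 0.0727). HK2 went from 21.5, 21.2 and 22.2 to 22.9, 22.2 and 22.2 FPKM, touching at this rounding, with a change of 0.05 (SE 0.033, adjusted p = 0.242). PGK1 went from 139, 140.0 and 135 to 145, 144 and 142 FPKM, a change of 0.06 (SE 0.029, adjusted p = 0.142). These 3 were called higher under quantile normalization (0.16, 0.12 and 0.18), under the length and GC correction and with voom on recovered reads, and HK1 also without knockdown replicate 1 (0.10, adjusted p = 0.0383). ALDOA changed by -0.13 (SE 0.056, adjusted p = 0.0914). GPI (-0.08, SE 0.041, adjusted p = 0.141) and PKM (-0.03, SE 0.032, adjusted p = 0.440) overlapped, and the sign of PKM turned positive under 3 of the alternatives. TPI1 (456 to 440.5 FPKM, adjusted p = 0.297) and GAPDH (1145 to 1038 FPKM, -0.14, adjusted p = 0.0531) did not pass the test. GAPDH was called lower in 4 of 15 settings, those with the 5 FPKM filter (adjusted p = 0.0416), quantile normalization (0.00121), voom (0.0440) or without shcontrol replicate 3 (0.00742).

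**Figure D2:**
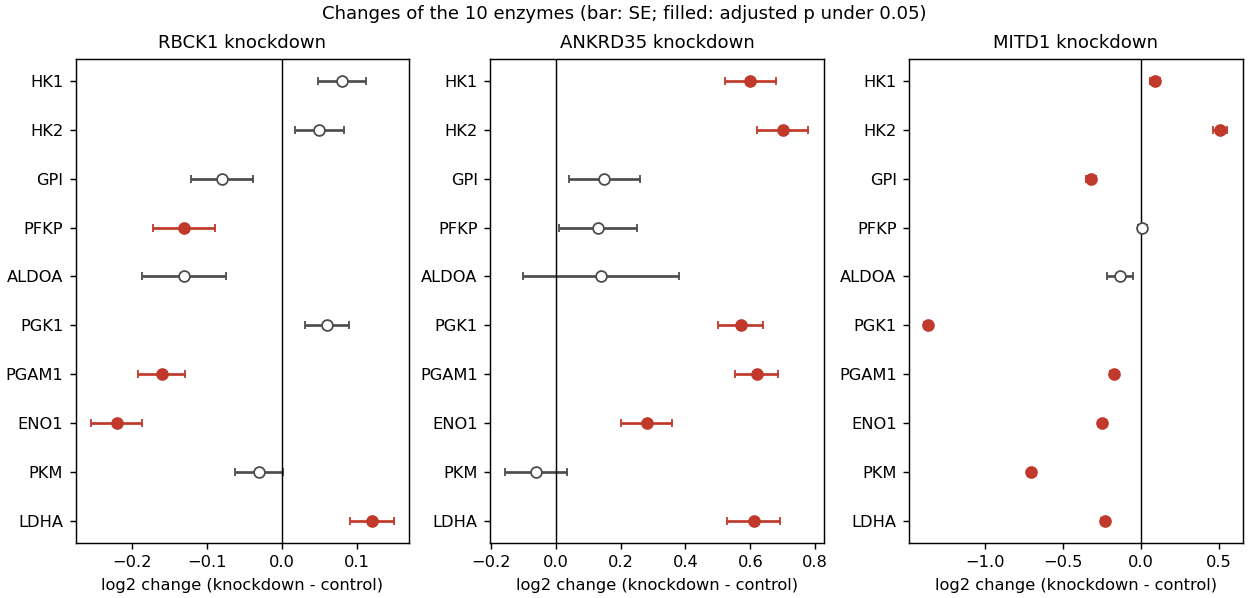
Log2 change (knockdown minus control, log2(FPKM + 1) scale) of each enzyme in pathway order, 1 panel per knockdown, bars giving the SE and filled points an adjusted p under 0.05; the horizontal axes differ between panels. The RBCK1 changes lie between -0.22 and 0.12, the ANKRD35 calls are all above 0, and in the MITD1 panel PGK1 (-1.36) and PKM (-0.70) lie opposite HK2 (0.51).

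The 3 comparisons share no libraries, and their values for the same step can be read side by side. PGAM1, ENO1 and LDHA were called in all 3, and no enzyme was called in 1 direction in all 3. Called changes of both directions were found for 4 enzymes, PGK1, PGAM1, ENO1 and LDHA. Of these calls, that of ENO1 after ANKRD35 knockdown was made in only 7 of 15 settings. The PGAM1 change after RBCK1 knockdown turned to 0.10 under quantile normalization. PGK1 changed by 0.06, 0.57 and -1.36 after knockdown of RBCK1, ANKRD35 and MITD1, and LDHA by 0.12, 0.61 and -0.23. HK2 had positive values throughout, 0.05, 0.70 and 0.51, of which the last 2 passed the test. ALDOA was called in none. A difference between comparisons was not tested, since each was fitted in its own table.

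**Figure D3:**
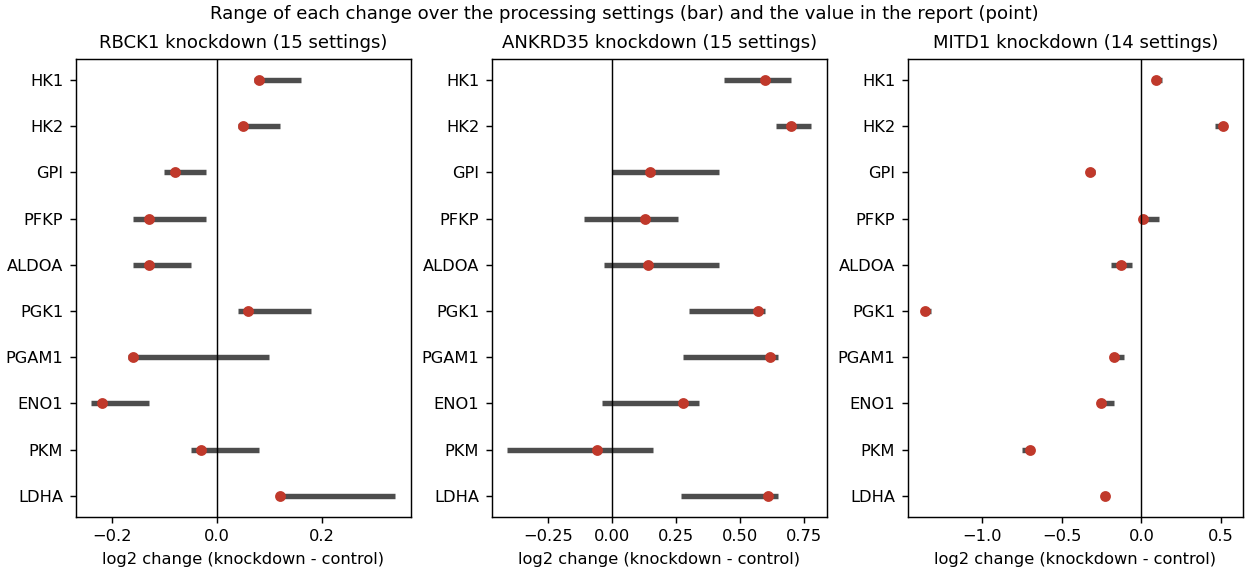
Range of each enzyme's log2 change over the processing settings (grey bar, lowest to highest) with the reported value (red point), 1 panel per knockdown with its own horizontal axis. Bars cross 0 for PGAM1 and PKM in the RBCK1 panel for ENO1, PFKP, PKM and ALDOA in the ANKRD35 panel and for PFKP in the MITD1 panel, while PGK1 in the MITD1 panel stays between -1.37 and -1.32.

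The balance among the enzymes was also described as each gene's percent of the summed FPKM of the 10 in its library, a quantity that a common scaling of the library cannot alter. After MITD1 knockdown the share of PGK1 went from 5.42% ± 0.0648 to 2.69% ± 0.0601 (SD, n = 3) and that of PKM from 24.4% ± 0.292 to 19.2% ± 0.155, while ENO1 went from 37.9% to 40.7% although its FPKM was lower. PKM also made up less of the sum after ANKRD35 knockdown, 23.9% ± 0.191 in controls and 18.4% ± 1.18 after it, where PGAM1 went from 14.0% to 17.3%. After RBCK1 knockdown the share of ENO1 went from 34.6% to 31.6% and that of LDHA from 11.8% to 13.7%. None of these shares overlapped between groups, and neither did most of the other members' shares in each table. The shares carry no test, and shares of 1 sum are not independent of each other.

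**Figure D4:**
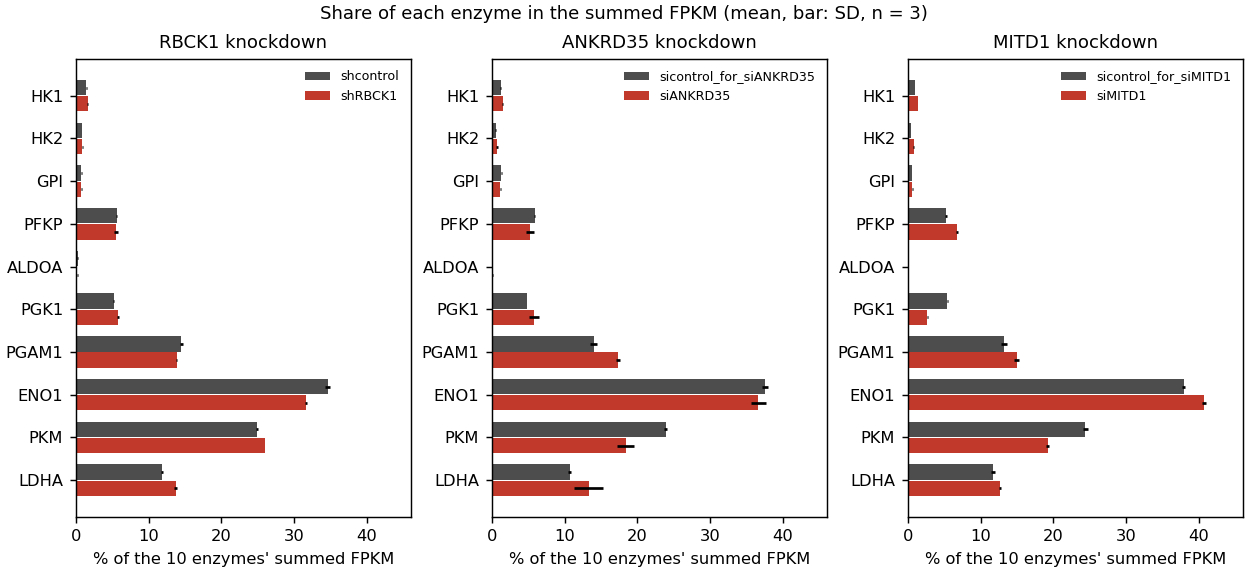
Percent of the 10 enzymes' summed FPKM held by each enzyme, as the mean of 3 libraries with SD, for control (grey) and knockdown (red) in the 3 tables. PKM is lower after ANKRD35 knockdown (23.9% to 18.4%) and MITD1 knockdown (24.4% to 19.2%) and slightly higher after RBCK1 knockdown (24.9% to 26.0%).

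At steps with several isozymes, the share of each member among its isozymes' summed FPKM was compared by an exact permutation test, two-sided, which with 3 against 3 cannot go below p = 0.1. The smallest adjusted p reached was 0.267, in the ANKRD35 and MITD1 comparisons. HK2 held 30.0%, 29.3% and 29.5% of HK1, HK2 and HK3 in the MITD1 controls and 38%, 36.4% and 34.4% after knockdown (exact permutation p = 0.1, adjusted p = 0.267). All 3 knockdown libraries were higher, by 6.64 percentage points on average. In the ANKRD35 table the share was 30.9%, 30.1% and 30.3% in controls and 31.2%, 35.6% and 31.0% after knockdown. The mean difference there, 2.15 points without overlap, came mostly from knockdown replicate 2. HKDC1, a further hexokinase outside that sum, was at 67.1 FPKM in the ANKRD35 controls, above HK1, and fell to 50.3 (log2 change -0.42, adjusted p = 0.0258). In the MITD1 table HKDC1 rose from 14.0 to 19.9 FPKM (0.48, adjusted p = 8.44e-06).

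PFKP made up most of the phosphofructokinase FPKM, and its share was lower in the knockdown libraries of all 3 tables without overlap. It went from 83.4%, 83.9% and 82.8% to 80.8%, 80.5% and 80.3% after RBCK1 knockdown (exact permutation p = 0.1, adjusted p = 0.400). The mean differences were -2.84 points for RBCK1, -2.85 for ANKRD35 and -1.99 for MITD1. For ANKRD35 the share was 75.4%, 75.6% and 75.8% in controls and 74.1%, 70.0% and 74.1% after knockdown. Knockdown replicate 2 thus enlarged that mean difference. The partner genes that moved differed: PFKM, the muscle type, rose from 7.05 to 9.79 FPKM after RBCK1 knockdown (0.42, adjusted p = 0.000259) and from 19.4 to 26.5 after ANKRD35 knockdown (0.43, adjusted p = 0.00513). After MITD1 knockdown PFKM fell from 9.76 to 8.75 FPKM (-0.14, adjusted p = 0.0165) and PFKL, the liver type, rose from 20.2 to 27.0 (0.40, adjusted p = 1.65e-05).

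LDHA held 96.6%, 96.2% and 96.5% of LDHA and LDHB in the MITD1 controls and 98.4%, 98.2% and 98.0% after knockdown (exact permutation p = 0.1, adjusted p = 0.267). LDHB, the heart-type subunit, fell from 17.3 to 7.35 FPKM (-1.14, adjusted p = 2.39e-06), more than LDHA did. In the ANKRD35 table the LDHA shares overlapped, and LDHB rose from 21.4 to 31.7 FPKM (0.55, adjusted p = 0.0460). ENO1 held 94.4% to 99.2% of the enolase FPKM in every library. ENO2, the neuronal enolase, rose from 14.5 to 22.2 FPKM after ANKRD35 knockdown (0.58, adjusted p = 0.00455) and fell from 13.4 to 10.1 after MITD1 knockdown (-0.37, adjusted p = 0.000267). ENO3, the muscle enolase, fell from 1.98 to 0.947 FPKM after RBCK1 knockdown (-0.61, adjusted p = 0.000824). PGK2 and PGAM2 were listed at 0 in all libraries, and PKLR at no more than a trace.

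**Figure D5:**
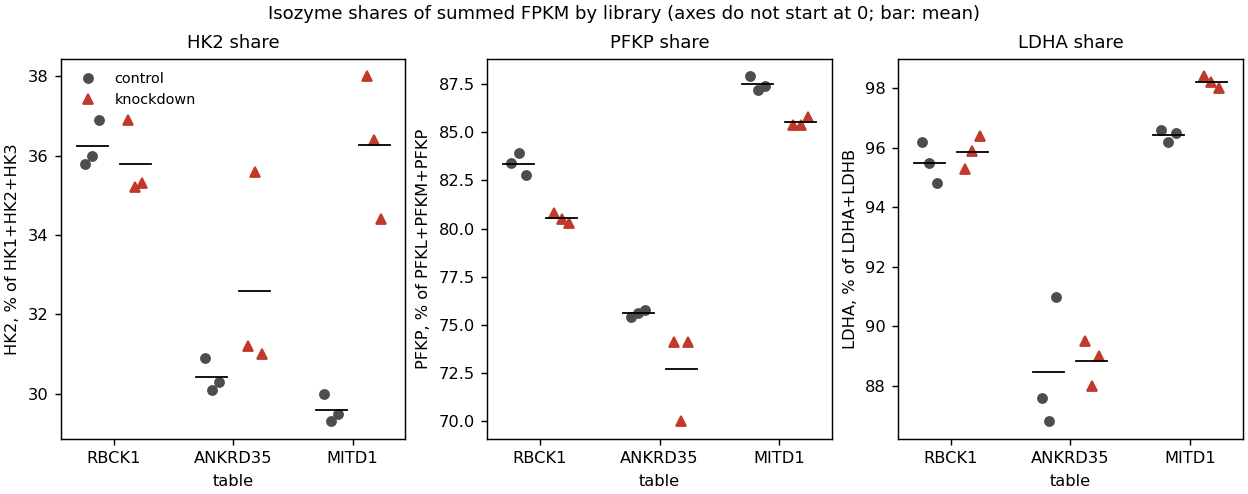
HK2, PFKP and LDHA as percent of the summed FPKM of their isozymes, by library, for controls (grey circles) and knockdowns (red triangles) of the 3 tables; the vertical axes do not start at 0. HK2 separates in the MITD1 table (29.3% to 30.0% against 34.4% to 38%), PFKP is lower in all 3 knockdowns, and LDHA separates in the MITD1 table.

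The genes around the pathway were read from lists chosen for their function. Of 8 genes of glucose and lactate transport, 6 were tested after MITD1 knockdown, where 4 fell and 1 rose, against 35.6% and 30.0% of all genes. SLC2A1, the glucose transporter GLUT1, fell from 347 ± 2.66 to 265 ± 4.30 FPKM (SD, n = 3; -0.39, adjusted p = 1.31e-06). SLC16A3, the lactate exporter MCT4, fell from 79.5 ± 3.25 to 52.1 ± 2.19 (-0.60, adjusted p = 3.93e-06), and BSG, its chaperone, from 318 to 262 (-0.28, adjusted p = 4.18e-05). After RBCK1 knockdown 2 of 6 fell, against 24.9% of all genes, SLC2A3 (-0.28, adjusted p = 0.00267) and SLC2A12 (-0.36, adjusted p = 0.00786). None of the 5 tested was called by limma after ANKRD35 knockdown, where 2 were higher at an unadjusted p under 0.05, or with voom (0 at an unadjusted p).

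Among 15 regulators of flux and pyruvate fate, 9 of 13 tested fell and 2 rose after MITD1 knockdown, against 35.6% and 30.0% of all genes. PDK2 (2.92 to 1.12 FPKM, -0.89, adjusted p = 5.17e-06), a kinase that inhibits pyruvate dehydrogenase, fell, and so did TIGAR, a fructose bisphosphatase (1.44 to 0.552 FPKM, -0.65, adjusted p = 0.000113). PDP1, the phosphatase that activates pyruvate dehydrogenase (15.6 to 26.8 FPKM, 0.75, adjusted p = 2.08e-06), and MPC1, a subunit of the mitochondrial pyruvate carrier (15.0 to 23.8 FPKM, 0.64, adjusted p = 4.03e-05), rose. After ANKRD35 knockdown 5 of 10 tested rose and 1 fell, against 19.4% and 16.9% of all genes. Those that rose included PDHB (0.62) and DLAT (0.51) of the pyruvate dehydrogenase complex, MPC2 of the carrier (0.67) and PFKFB3 (0.48), which makes the activator of phosphofructokinase, with adjusted p-values from 0.00199 to 0.00655. After RBCK1 knockdown 2 of 11 rose, PDK3 (0.53) and MPC1 (0.44), and 2 fell, PFKFB3 (-0.20) and PDP1 (-0.23), with adjusted p-values from 0.00104 to 0.00682. These counts are no higher than the 24.1% and 24.9% of all genes.

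Of 14 genes of gluconeogenesis and glycogen, 5 of 10 tested rose and 3 fell after MITD1 knockdown, against 30.0% and 35.6% of all genes. PCK2, mitochondrial phosphoenolpyruvate carboxykinase, rose from 17 ± 0.379 to 42.8 ± 0.787 FPKM (SD, n = 3; 1.29, adjusted p = 2.79e-08), GBE1, the glycogen branching enzyme, from 18.5 to 25.6 (0.45) and UGP2, which makes UDP-glucose, from 19.6 to 25.2 (0.35). After ANKRD35 knockdown 3 of 9 rose, against 19.4% of all genes, and 1 fell, PCK2 (14.0 to 10.8 FPKM, -0.35, adjusted p = 0.00819). After RBCK1 knockdown 4 of 10 rose, PC, GYS1, GBE1 and PGM1, by 0.56, 0.34, 0.27 and 0.27 on the log2 scale, and 1 fell, against 24.1% and 24.9% of all genes.

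The pentose phosphate pathway branches off after the hexokinase step, and all 7 genes of its list were tested in each table. After MITD1 knockdown 3 of 7 fell and 1 rose, against 35.6% and 30.0% of all genes. PGD, which makes ribulose 5-phosphate, fell from 132 to 93.7 FPKM (-0.50, adjusted p = 9.42e-07), and PGLS, the lactonase, rose by 0.14 (adjusted p = 0.00369). After ANKRD35 knockdown 3 rose, RPIA (0.72), TALDO1 (0.42) and RPE (0.29), and 1 fell, against 19.4% and 16.9% of all genes. After RBCK1 knockdown 3 rose, RPE (0.31) and PGD (0.15) among them, and 2 fell, TALDO1 (-0.16) among them, against 24.1% and 24.9% of all genes.

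The list of transcription factors known to act on glycolytic genes also holds VHL, which promotes HIF degradation and is not a transcription factor. VHL is among the called genes of this list in each comparison. The genes of the list did not move alike in the 3 tables. EPAS1 rose from 38.7 ± 0.368 to 61.3 ± 2.0 FPKM (SD, n = 3) after MITD1 knockdown (0.65, adjusted p = 6.74e-07), when 5 of 8 tested genes of this list rose, ARNT, the HIF partner (0.51), and MYC (0.17) among them, and 1 fell, against 30.0% and 35.6% of all genes. EPAS1 fell from 38.1 ± 1.46 to 19.1 ± 1.19 FPKM after ANKRD35 knockdown (-0.96, adjusted p = 0.000674), with MLXIP, a glucose-sensing factor (-0.86, adjusted p = 0.00279), SP1 and VHL, 4 of 8 against 16.9% of all genes. None rose in limma, where 1 was higher at an unadjusted p under 0.05, or with voom (0 at an unadjusted p). MYC fell from 83.1 ± 1.78 to 35.6 ± 1.90 FPKM (SD, n = 3) after RBCK1 knockdown (-1.20, adjusted p = 8.39e-07), with its partner MAX (-0.41, adjusted p = 0.000165), while 3 of 8 rose, VHL (0.35) and EPAS1 (0.21) among them, against 24.9% of all genes that fell and 24.1% that rose. These are transcript levels, and protein was not measured in these libraries.

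Genes outside all lists whose 3 log2 changes lay closest to the medians of the 10 enzymes (-0.06, 0.42 and -0.20) were ranked by root mean squared difference over the 3 comparisons. Among 9208 genes tested in all 3 tables, the nearest were SKA3 (0.0191), PPP4C (0.0211), TTC1 (0.0237), EIF4A3 (0.0275) and ACADS (0.0280). SKA3, for example, changed by -0.07, 0.40 and -0.22. With 3 comparisons the measure is coarse, and it describes likeness of values only.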

How the data were processed

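The 18 libraries were total RNA of 786-O cells made into directional libraries, per the labels' protocols, and were assigned to 6 groups of 3 by their titles. The authors deposited FPKM values, 1 table per knockdown with its control. The RBCK1 and ANKRD35 tables list gene lengths, starts and ends: all 58735 gene identifiers match GENCODE 29 on GRCh38 in both ends, whereas the submitters' processing notes name the mouse build mm10. The aligner, the counting tool and the counting strand are not given in the sources used here. A further 6 value columns carry the names of none of these samples and were left out.

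Each comparison was fitted in its own table with limma 3.58.1 (trend, R 4.3.3) on log2(FPKM + 1) for genes that reached 1 FPKM in 3 or more of the 6 libraries, two-sided, with Benjamini-Hochberg adjustment over all genes tested. A gene was called at an adjusted p under 0.05. A pseudocount of 1 understates changes of low genes. FPKM times length was a whole number of reads (tolerance 0.01) for 100% of genes checked in the RBCK1 and ANKRD35 tables, which gave the reads. The MITD1 table lists symbols only, and its reads are estimates made with the other tables' lengths. Whole reads allowed a check by voom in the first 2 tables. No 2 libraries held identical values. The fit was tested on simulated data.

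The 10 members, the lists, the tests and the alternatives were chosen with earlier results of these data known. Named genes are the targets, all members, TPI1 and GAPDH, up to 4 called genes of each other list per comparison by adjusted p, all genes of an isozyme share, and pseudogenes above 1% of their parent. A further gene that this rule names is not reported here. EPCAM, CDH16, GATA3 and NEFL were singled out after their values were seen. Isozyme shares used exact permutation tests with Benjamini-Hochberg adjustment over 8 shares per comparison. Analyses used Python 3.11.15. Motifs were searched in RefSeq windows. Alternatives were another pseudocount (0.1), no filter, a 5 FPKM filter, quantile normalization, median centring, a length and GC correction, voom, a replicate block and leaving out each library.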

Additional observations from a re-analysis of the deposited data

How the results depend on the processing

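Directions and calls of PGK1, PKM, GPI, ENO1, LDHA, PGAM1 and HK2 after MITD1 knockdown (14 settings) and of HK1, HK2, PGK1, PGAM1 and LDHA after ANKRD35 knockdown (15 settings) held in every setting run. voom was not run for MITD1, whose table lists no lengths, and ALDOA has 1 setting fewer in the ANKRD35 and MITD1 tables, where it fails the 5 FPKM filter. For RBCK1, enzymes called higher numbered 0 with no filter, 5 under quantile normalization, 3 with median centring and 4 with either the length and GC correction or voom, against 1, and enzymes called lower numbered 1 with no filter and 1 under quantile normalization, against 3. Leaving out each library gave 1 to 2 called higher and 2 to 3 called lower. Quantile normalization turned PGAM1 to 0.10, PKM to 0.08, TPI1 to 0.08 and ENO2 to 0.01 there. The length and GC correction turned PKM to 0.01, TPI1 to 0.02 and ENO2 to 0.05, and voom PKM to 0.03, TPI1 to 0.01 and ENO2 to 0.03. For ANKRD35, quantile normalization turned PFKP to -0.11, ENO1 to -0.04 and GAPDH to -0.03 and called 1 enzyme lower, PKM, and the length and GC correction turned PKM to 0.16. For MITD1, GAPDH turned to 0.03 (quantile) and 0.05 (length and GC), and PYGB to 0.01 (length and GC). Leaving out 1 library turned signs of uncalled values only: in RBCK1 PFKL (-0.02 to 0.09) and LDHB (-0.10 to 0.11), in ANKRD35 ALDOA (-0.03 to 0.42), PKM (-0.13 to 0.03) and PFKL (-0.04 to 0.22), and in MITD1 PFKP (-0.01 to 0.03, with -0.0039 and -0.0033 between). It also turned the share differences of ALDOA (-1.75 to 3.98 points in ANKRD35 and -0.0662 to 2.50 in MITD1) and of LDHA in ANKRD35 (-0.479 to 1.64). Genes called in the ANKRD35 comparison numbered 2267 to 6536 on leaving out 1 library, 6536 without knockdown replicate 2, against 4312, and enzymes called higher 5 to 8. Enzymes called higher after MITD1 knockdown numbered 1 to 2. The median change of the 10 became 0.09 (quantile), -0.01 (length and GC) and 0.0032 (voom) for RBCK1, 0.57 (5 FPKM filter), 0.27 (quantile) and 0.34 (voom) for ANKRD35, and -0.23 (5 FPKM filter), -0.17 (quantile) and -0.16 (length and GC) for MITD1. The cause of these changes was not tested, except that the 5 FPKM filter removes genes. The split of all calls also differed under voom, which changes the values, scaling and weights together: 2951 higher and 3049 lower for RBCK1 became 4191 and 2673, and 2305 and 2007 for ANKRD35 became 1747 and 2724. With the 5 FPKM filter 2044 of 3208 ANKRD35 calls were higher. Same-numbered control and knockdown libraries were not shown to be paired (correlations of -0.0874 to 0.179), and a replicate block gave 5347, 4139 and 6859 called genes against 6000, 4312 and 6835, with PFKP in RBCK1 (adjusted p = 0.0795) and GAPDH in ANKRD35 (0.0717) the calls lost among the pathway steps. Depth limits ALDOA, with as few as 36 reads in a library.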
